A study of Mus musculus with 14 samples.

Results

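The serum response factor gene Srf and 9 genes of the actin cytoskeleton (Actb, Actg1, Acta2, Tagln, Vcl, Flna, Myh9, Tpm1 and Tpm4) were followed through their accessible chromatin while GATA6 drove mouse embryonic stem (ES) cells towards primitive endoderm (PrE). ATAC-seq peaks of 14 libraries were merged wherever they overlapped, and each merged region was given to the protein-coding gene with the nearest transcription start site (TSS) within 50 kb. By this rule 102 of 124598 merged regions belonged to the 10 genes, out of 84402 that lay within 50 kb of any protein-coding TSS. Myh9 had 26 regions, Tpm1 17, Actb 15, Vcl 10, Actg1 9, Flna 8, Srf 7, Tagln 4, Tpm4 4 and Acta2 2. Being nearest to a TSS does not show that a region acts on that gene, and 7 of the 102 regions lay inside another gene.

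All libraries came from KH2, an ES cell line whose doxycycline (Dox)-responsive TRE promoter drives GATA6 together with DsRed2. At 0 h the cells were in serum-free 2i medium with the MEK inhibitor PD0325901, the GSK3 inhibitor CHIR and LIF, and received no Dox. At 2, 4 and 8 h they were in serum medium with LIF and Dox, and at 16, 24 and 48 h they had received Dox for 12 h and were then kept in the same medium without it. There were 2 libraries per time point, which the study describes as independent replicate experiments, while the sample labels name no separate cultures. Loss of the inhibitors, addition of serum and induction of GATA6 all began together after 0 h, so their parts in any difference from 0 h cannot be told apart.

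SRF is a transcription factor that binds the CArG box, a run of A and T bases between CC and GG. It acts with myocardin-related cofactors (MRTFs), which are held in the cytoplasm by monomeric actin and released when actin polymerises, and with ternary complex factors, which are targets of the MEK-ERK cascade. Serum is the classical stimulus of both arms, and genes for actin and actin-binding proteins are classical SRF targets.

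The lists held 55588 to 65073 peaks per library, and 51784 to 62669 merged regions were called in each, a call meaning that a peak covered at least 1 bp of the region. The lists carry no read counts, so depth is unknown and a region without a call may still be open below the calling threshold. As a check on cell identity, the regions at the TSSs of 6 PrE markers (Gata4, Sox17, Sox7, Pdgfra, Dab2 and Foxa2) were called in both libraries for 0 genes up to 4 h, then for 3 genes at 8 h, 2 at 16 h, 1 by 24 h and 4 in the 48 h libraries. Of 6 ES cell markers (Pou5f1, Sox2, Nanog, Esrrb, Zfp42 and Klf4), 3 were so called at 0 h, 2 at 2 h, 3 at 4 h, 4 at 8, 16 and 24 h and 3 at 48 h. The Pou5f1 TSS was called only from 8 h on. The number of ES cell marker TSSs so called was thus the same at 48 h as at 0 h. Of 73 regions nearest to the PrE markers, 34 were called in both 48 h libraries and neither 0 h library, and 5 showed the reverse. For the ES cell markers these numbers were 17 and 14 of 84. Unlike that of Pou5f1, the Nanog TSS was called in both 0 h libraries and in neither 48 h library. Of the TSSs of 4 smooth muscle markers, those of Cnn1 and Des had no call in any library, that of Myh11 was called in all 14 and that of Myocd in 13.

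CArG boxes were frequent in these regions. Within the central 200 bp, a box on either strand was present in 8 of 102 member regions (7.84%) and in 0.856% of all 124598 regions, and over the whole region in 20 member regions (19.6%) and 2.30% of all. The 10 genes were chosen as SRF-linked, so this share is a description and was not tested. For each gene with a box in a called region, the box nearest to the TSS is given here on the strand of the gene in GRCm38, with the box in capitals and 10 bases on each side.
Srf, chr17:46556205-46556234, minus strand, in the region at the TSS: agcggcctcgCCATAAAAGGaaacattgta
Actb, chr5:142906768-142906797, minus strand, in the region at the TSS: ccgaaagttgCCTTTTATGGctcgagtggc
Actg1, chr11:120350126-120350155, minus strand, in the region 1.8 kb upstream: gtcgaaatcgCCAAATATGGccgcgcgccg
Vcl, chr14:20929161-20929190, plus strand, in the region at the TSS: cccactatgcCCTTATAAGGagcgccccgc
Flna, chrX:74248790-74248819, minus strand, in the region 0.9 kb downstream: agaatctactCCAAATAAGGgaaaatatga
Myh9, chr15:77842628-77842657, minus strand, in the region at the TSS: accacttttcCCATATATGGtacttaatat
Tpm1, chr9:67041029-67041058, minus strand, in the region 8.3 kb downstream: cctttcttgaCCATATAAGGgcaggagttt
Tpm4, chr8:72136822-72136851, plus strand, in the region 2.0 kb downstream: gcctcttttaCCTTATAAGGgaaacccttt
These boxes lie in regions of very different behaviour. Those of Srf, Actg1, Vcl, Myh9 and Tpm4 were in regions called in all 14 libraries, that of Actb in a region called in 11, that of Tpm1 in a region called in 6 and that of Flna in a region called in 5. No region of Acta2 or Tagln held a box.

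RefSeq promoter windows, which run from 250 bases before to 50 after the start, were matched for 8 of the 10 genes. A CArG box was found in 3 of these 8, those of Srf, Actg1 and Vcl, against 1.63% of 32851 promoters. The promoter of Srf (GRCm38 chr17:46556113-46556412, minus strand) is printed because it holds 2 boxes, shown in capitals, in a region called in every library.
Srf promoter: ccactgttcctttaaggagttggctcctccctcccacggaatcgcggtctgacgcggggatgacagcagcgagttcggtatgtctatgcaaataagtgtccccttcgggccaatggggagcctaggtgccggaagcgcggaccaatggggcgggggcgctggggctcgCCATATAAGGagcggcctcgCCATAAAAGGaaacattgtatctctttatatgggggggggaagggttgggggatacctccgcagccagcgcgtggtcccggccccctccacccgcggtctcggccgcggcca
The promoter of Actg1 (chr11:120348446-120348745, minus strand) is printed for the contrast, since it also holds a box, in capitals, and yet the region at its TSS was called in 1 library.
Actg1 promoter: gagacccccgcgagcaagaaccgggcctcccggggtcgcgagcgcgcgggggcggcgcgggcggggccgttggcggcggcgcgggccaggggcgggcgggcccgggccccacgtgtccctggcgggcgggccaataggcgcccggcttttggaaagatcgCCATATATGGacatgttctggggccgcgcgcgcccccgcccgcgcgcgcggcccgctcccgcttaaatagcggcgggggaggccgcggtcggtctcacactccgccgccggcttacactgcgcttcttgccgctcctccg

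More regions around these genes were called after the move to serum and Dox than before it. The 0 h libraries called 44 and 40 of the 102 regions, while the 12 later libraries called between 50 and 60, with a median of 53.5. The groups did not overlap, although the number of all regions called did, with 54137 and 56966 at 0 h and 51784 to 62669 later. The mean was 42 ± 2.83 (SD, n = 2) at 0 h, 54 ± 1.41 (SD, n = 2) at 2 h, 57 ± 4.24 (SD, n = 2) at 16 h and 51.5 ± 0.707 (SD, n = 2) at 48 h. As a share, 41.2% of the member regions were called at 0 h and 52.9% at 2 h, beside 44.6% and 45.9% of all regions. The map of calls shows that most of the increase at 2 h came near Vcl and Tpm1.

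**Figure D1:**
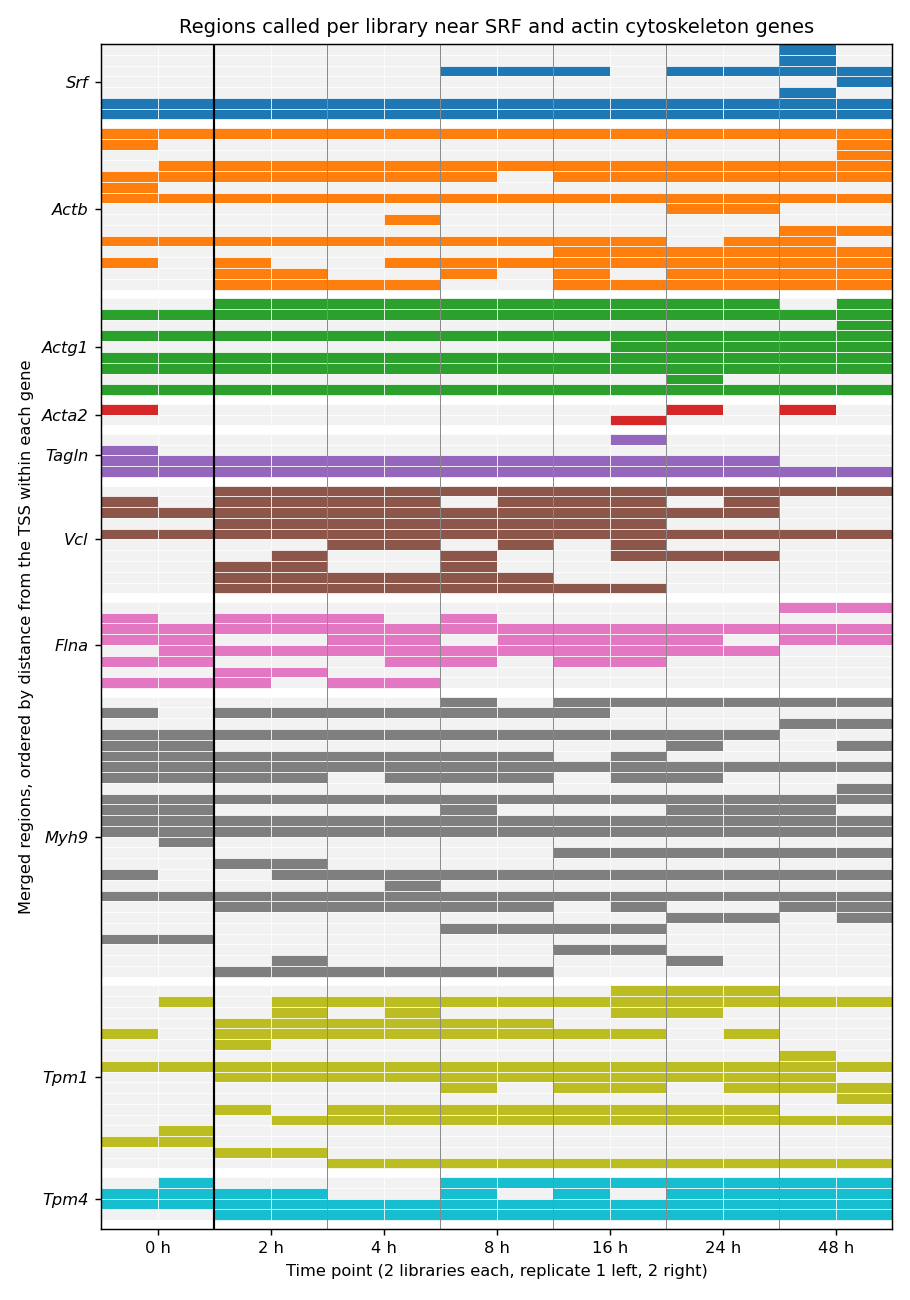
Calls of the 102 regions in the 14 libraries. Each row is 1 region, coloured where called and pale where not, grouped by gene and ordered by signed distance from the TSS, most upstream at the top; columns are the 2 libraries of each time point, and the heavy line divides 0 h from the serum libraries. The block of Vcl regions is mostly filled at 2 h and mostly empty at 48 h, while 5 of the 9 Actg1 rows are filled in all 14 libraries.

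A region was counted as gained at a time point when both of its libraries called it and neither 0 h library did, and as lost in the reverse case. No exact two-sided permutation p below 0.333 can be had from 2 libraries against 2, so these counts have no test of their own. At 2 h, 16 of 102 regions (15.7%) were gained, beside a background of 8.64% of all regions, and 6 (5.88%) were lost, beside 6.25%. The members gained later numbered 15 at 4 h (background 10.1%), 15 at 8 h (11.1%), 16 at 16 h (13.3%) and 18 by 24 h (11.6%). Those lost numbered 5 at 4 h (background 7.37%), 4 at 8 h (9.99%), 5 at 16 h (9.71%) and 5 by 24 h (13.2%). The 48 h libraries had 16 gained members, 15.7% beside 14.5% of all regions, and 9 lost ones, 8.82% beside 16.6%. The lost members depended on the 0 h libraries, since without replicate 2 of 0 h they numbered 15 at 48 h (beside 20.5% of all regions), 10 at 24 h (16.9%), 10 at 16 h (13%), 8 in the 8 h comparison (13.4%), 9 in that at 4 h (10.7%) and 10 in that at 2 h (9.58%). Without replicate 1 of 0 h they numbered 12 at 48 h (21.7%) and 8 at 4 h (11.8%). Leaving out replicate 1 of 8 h gave 8 at 8 h (11.7%), and leaving out replicate 1 of 24 h gave 8 at 24 h (14.5%). Among the regions within 50 kb of a protein-coding TSS alone, the background at 48 h was 14.1% gained and 14.4% lost, and at 2 h it was 7.88% and 5.61%. The gained share of the members was therefore nearly level from 2 h on, while that of all regions climbed towards it, with a dip at 24 h. These comparisons share the 0 h libraries and are not independent of each other.

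**Figure D2:**
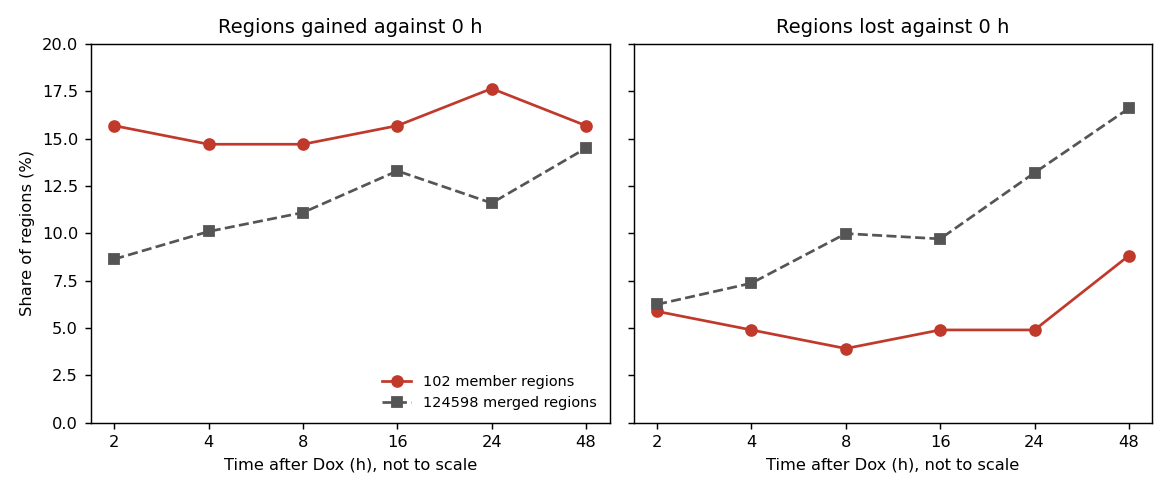
Share of the 102 member regions (red circles) and of all 124598 merged regions (grey squares) gained (left) and lost (right) at each time point against 0 h, in percent. The gained share of the members starts at 15.7% at 2 h and ends at 15.7% at 48 h, while that of all regions runs from 8.64% to 14.5%; the lost share of the members runs from 5.88% at 2 h to 8.82% at 48 h with both 0 h libraries in use.

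The 16 regions gained at 2 h were spread over 7 genes, with 5 near Vcl, 3 each near Myh9 and Tpm1, 2 near Actb and 1 each near Actg1, Flna and Tpm4. Of these 16, both libraries called 11 at 4 h, 10 at 8 h and 7 at 16 h, then 6 at 24 h and 5 at the end. The 48 h share was 31.3%, beside 18.6% of all regions gained at 2 h. The 16 regions gained at 48 h were arranged differently, with 4 near Actb, 4 near Myh9, 3 near Tpm1 and 1 each near Srf, Actg1, Vcl, Flna and Tpm4.

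Regions called in both libraries of some time point from 2 to 24 h and in no library of 0 h or 48 h, a class defined after the calls were seen, numbered 16 (15.7%, background 13.9%). Vcl had 6 of them, Myh9 4, Tpm1 4, Actb 1 and Flna 1. By contrast, 2 regions were called in all 12 serum libraries and in no 0 h library (background 1.17%), 1 near Vcl and 1 near Tpm4. The reverse pattern, both 0 h libraries and no serum library, was also seen in 2 regions (background 3.65%), inside Myh9 and Tpm1. All 14 libraries called 19 regions (18.6%, background 15.1%, or 19.2% of the regions within 50 kb of a TSS), and 23 regions were never called in both libraries of a time point.

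Changes over the whole course were tested per region by summing the ranks in time of its calling libraries and comparing the sum with every other arrangement of the calls (exact permutation test, two-sided). Adjustment followed Benjamini and Hochberg over all 79559 regions tested. Among the 62 member regions that could be tested, 8 rose (12.9%, background 12.1%) and 2 fell (3.23%, background 12.3%). The rising share was thus close to that of all regions. An unadjusted permutation p under 0.05 was reached by 25 of the 62 member regions (40.3%, background 46.6%). Leaving out either 0 h library raised the number falling to 6 (without replicate 1) or 8 (without replicate 2), beside 15.1% and 14.9% of all regions tested.

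The number of called regions per gene and library was tested in the same way with 100000 shuffles over 11553 genes, and 9 of the 10 genes had enough regions. It rose over time for Srf, Actb, Actg1 and Tpm4 (4 of 9, background 12% of genes) and fell for Flna (1 of 9, background 10.6%). The trends of Tagln, Vcl, Myh9 and Tpm1 did not pass. Because a gene whose regions open and close again has no trend, an exact permutation test of any difference between time points was added after the data were seen. It called 1 member gene, Vcl (background 5.56%).

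**Figure D3:**
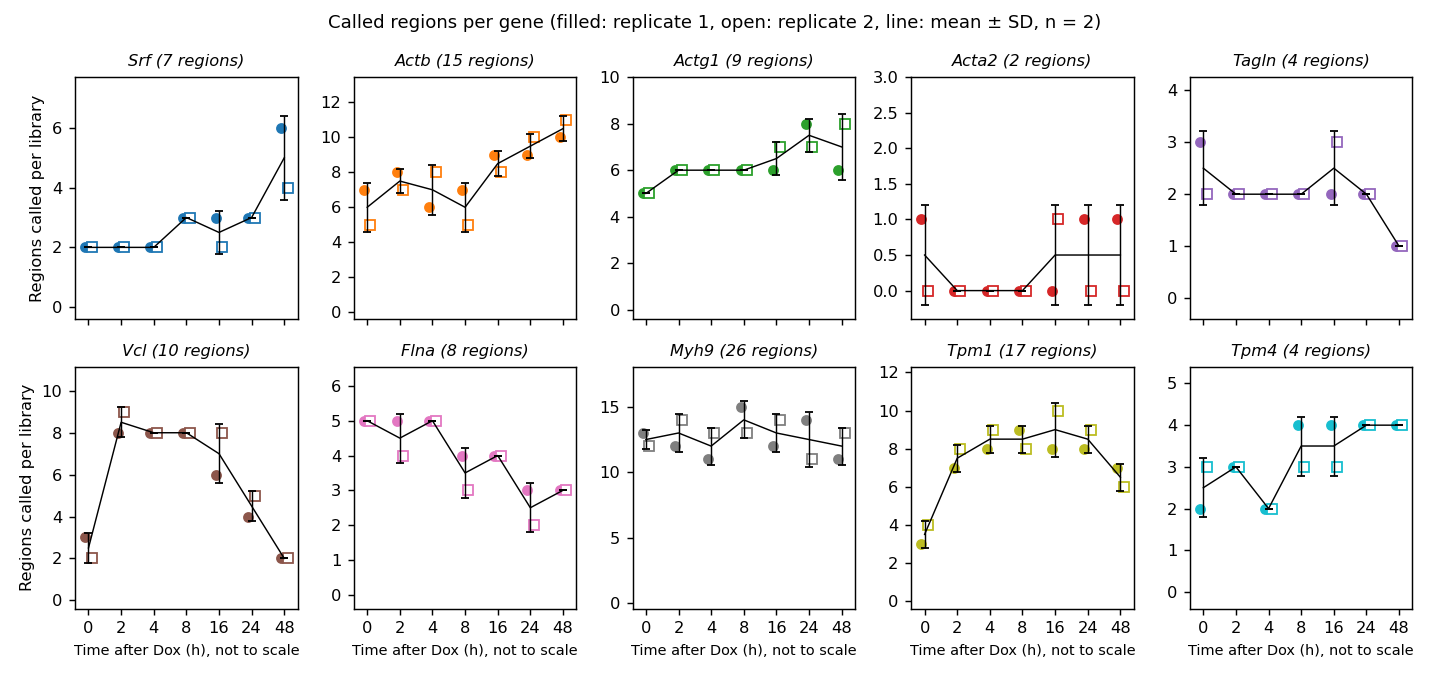
Number of called regions per library for each of the 10 genes at 0 to 48 h. Filled circles are replicate 1, open squares replicate 2, and the line joins the means with SD (n = 2). Vcl climbs from a mean of 2.5 at 0 h to 8.5 at 2 h and returns to 2 at 48 h, whereas Srf and Actb are highest at 48 h.

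Srf, which encodes the transcription factor itself, had 2 regions that were called in all 14 libraries. These were the region over its TSS (chr17:46555950-46556521) and an intronic region 3.1 kb into the gene. Its libraries called 2 and 2 at 0 h, 2 and 2 at 2 h, 2 and 2 at 4 h, 3 and 3 at 8 h, 3 and 2 at 16 h, 3 and 3 at 24 h, and 6 and 4 at 48 h, of 7 regions. Only the 48 h libraries stood clear of the rest, a pattern whose share among all genes was not counted. The gene trend rose (permutation test, adjusted p = 0.0041), by 3 regions between the means of 0 h and 48 h. Of the 7 regions, 4 were called in 1 library each, always at 48 h, with 3 of these in replicate 1. The scores of these 4 were low in their lists, between the 2.78th and the 12.8th percentile. The region that rose by its own test lay 18.9 kb upstream in an intron of Ptk7 (chr17:46574878-46575257), was absent up to 4 h, and was called in 7 of the 8 libraries from 8 h on (exact permutation test, adjusted p = 0.021). It contains a GATA motif in its central 200 bp, as did 4 of the 8 rising member regions, itself included, and 35.5% of all regions. The share among all rising regions was not counted, while among all regions gained at 48 h against 0 h it was 57.9%. Without the 0 h libraries the adjusted permutation p of this Srf region was 0.0605.

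The 2 Srf regions called in every library differed in their rank among the peaks of a library. The rank used here is the percentile of the authors' score within one list, which describes a peak's place among the others and is no measure of accessibility across libraries. The region at the TSS stood at the 73.9th and 86.6th percentile in the 0 h libraries and between 83.4 and 93.2 later, ranges that overlapped through the second 0 h library. The region 3.1 kb downstream stood at 86.6 and 90.4 in the 0 h libraries and between 59.4 and 81.6 later. It was thus lower in all 12 serum libraries than in either 0 h library. How many of all regions show such a shift in rank was not counted, and the shift was not tested.

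Actb, which encodes cytoplasmic β-actin, had 7 and 5 called regions at 0 h, 8 and 7 at 2 h, 6 and 8 at 4 h, 7 and 5 at 8 h, 9 and 8 at 16 h, 9 and 10 at 24 h, and 10 and 11 at 48 h. The libraries from 16 h on were all above both 0 h libraries, while those up to 8 h overlapped them. The share of all genes with this pattern was not counted. The gene trend rose by 4.5 regions between the means of 0 h and 48 h (permutation test, adjusted p = 0.0151). A region 3.3 kb upstream (chr5:142909766-142910369) was absent up to 8 h and called in all 6 libraries from 16 h on (exact permutation test, adjusted p = 0.013). It holds a GATA motif. The region over the TSS (chr5:142906513-142906881), in which the CArG box shown above lies, was called in 1 library at 0 h, 1 at 2 h, 1 at 4 h and both libraries from 8 h on (exact permutation test, adjusted p = 0.177).

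Upstream of Actb, neighbouring regions changed place in the ranking in opposite directions. The region 19.7 kb upstream was uncalled in one 0 h library and at the 5.39th percentile in the other. It was at 78.6 and 74.3 at 2 h and between 92.8 and 99.1 from 4 h on. The region 5.1 kb upstream went from 93.6 and 94.6 at 0 h to 60.5 and 61.0 at 2 h, 42.4 and 44.4 at 16 h, and was uncalled in 1 library at 24 h and in 1 at 48 h. Between them, the region 14.3 kb upstream, which holds an AP-1 motif, was called in all 14 libraries, at 91.7 and 85.7 at 0 h and at 96.5 or above later. These 3 regions were picked after their values were seen and were not tested for rank.

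Actg1, which encodes cytoplasmic γ-actin, had 5 of its 9 regions called in all 14 libraries. There were 5 and 5 called regions at 0 h, 6 and 6 at each of 2, 4 and 8 h, 6 and 7 at 16 h, 8 and 7 at 24 h, and 6 and 8 at 48 h. All 12 serum libraries were above both 0 h libraries, as they were for Tpm1, and 3.54% of the 11553 genes showed this. The reverse was seen in 0 of the 9 member genes tested and in 3.17% of all genes. The gene trend rose by 2 regions between the means of 0 h and 48 h (permutation test, adjusted p = 0.0132). The call was lost when the base pairs covered were used in place of the number of regions (adjusted permutation p = 0.789), with at least 50% of a region covered (0.528) or with the 50000 highest peaks of each library (0.292). Without the 0 h libraries it was also lost (0.11). A region 8.3 kb downstream of the TSS and past the end of the gene (chr11:120339943-120340541) was called in 1 library at 16 h and both at 24 and 48 h, and in none before (exact permutation test, adjusted p = 0.013). The region nearest to the TSS (chr11:120348436-120348525) was called in 48 h replicate 2 alone, while the region 1.8 kb upstream was called in all 14 libraries.

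The genes of contractile smooth muscle in the set gave little signal. Acta2, which encodes smooth muscle α-actin, had 2 regions, called in 3 libraries and 1 library, and no region within 1 kb of its TSS. Neither was called in both libraries of any time point, and with 2 regions the gene could not enter the test. Tagln, which encodes the actin-binding protein transgelin, had 3 and 2 called regions at 0 h, 2 in each library at 2, 4, 8 and 24 h, 2 and 3 at 16 h, and 1 and 1 at 48 h. Its nearest region, 1.0 kb upstream by its centre (chr9:45936799-45937244), was called in all 14 libraries. A second region, inside an intron of Sidt2, was called in all 12 libraries up to 24 h and in neither at 48 h. The gene trend of Tagln did not pass (permutation test, adjusted p = 0.168), but it passed downward without replicate 2 of 16 h (adjusted permutation p = 0.0181, in a range of 0.0181 to 0.418 over all alternatives).

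Vcl showed the widest swing of the 10 genes. It encodes vinculin, which links integrin and cadherin adhesions to actin filaments. The libraries called 3 and 2 of its 10 regions at 0 h, 8 and 9 at 2 h, 8 and 8 at 4 h, 8 and 8 at 8 h, 6 and 8 at 16 h, 4 and 5 at 24 h, and 2 and 2 at 48 h. All libraries from 2 to 24 h were above both 0 h libraries, and the 48 h libraries were level with the lower 0 h library. How many of all genes show this was not counted. The number differed between time points (exact permutation test added after the data were seen, adjusted p = 0.045), a call that held with all transcript TSSs, the 50000 highest peaks and wider merging (adjusted exact permutation p between 0.029 and 0.0426). It was lost with at least 50% of a region covered (adjusted exact permutation p = 0.0761), where 0 of 11576 genes passed, and within 25 kb of the TSS Vcl had too few regions to test. The trend across all 7 time points did not pass (permutation test, adjusted p = 0.498), while among the serum libraries alone it fell (adjusted permutation p = 0.00383).

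The region over the Vcl TSS (chr14:20928780-20929742), which holds the CArG box shown above, was called in all 14 libraries and stayed at the 97.9th percentile or above. The swing came from distal regions. Inside the gene, regions 44.6 kb and 48.3 kb downstream of the TSS were gained at 2 h. The first was called in both libraries at 2, 4 and 8 h and in none later, at percentiles of 88.4 and 91.3 at 2 h, 88.1 and 87.1 at 4 h, and 61.9 and 59.8 at 8 h. The second lasted until 16 h. Upstream, a region at 36.5 kb was called in all 8 libraries from 2 to 16 h and in no other, and its neighbour at 37.4 kb in all libraries up to 24 h and in neither at 48 h. A region 44.1 kb upstream (chr14:20885117-20885496) was called in all 12 serum libraries and in neither 0 h library, and so remained as the one distal Vcl region called at 48 h.

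The central 300 bases of the intronic Vcl region 44.6 kb downstream (GRCm38 chr14:20973861-20974160, plus strand) are printed because this region, picked after its calls were seen, opened within 2 h and closed again. Capitals mark 2 copies of the AP-1 motif TGACTCA.
Vcl region: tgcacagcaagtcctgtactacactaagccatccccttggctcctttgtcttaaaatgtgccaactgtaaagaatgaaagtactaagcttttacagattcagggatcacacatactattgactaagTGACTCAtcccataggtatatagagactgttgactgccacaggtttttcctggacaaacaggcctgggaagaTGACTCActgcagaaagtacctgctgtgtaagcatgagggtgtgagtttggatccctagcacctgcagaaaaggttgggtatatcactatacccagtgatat

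**Figure D4:**
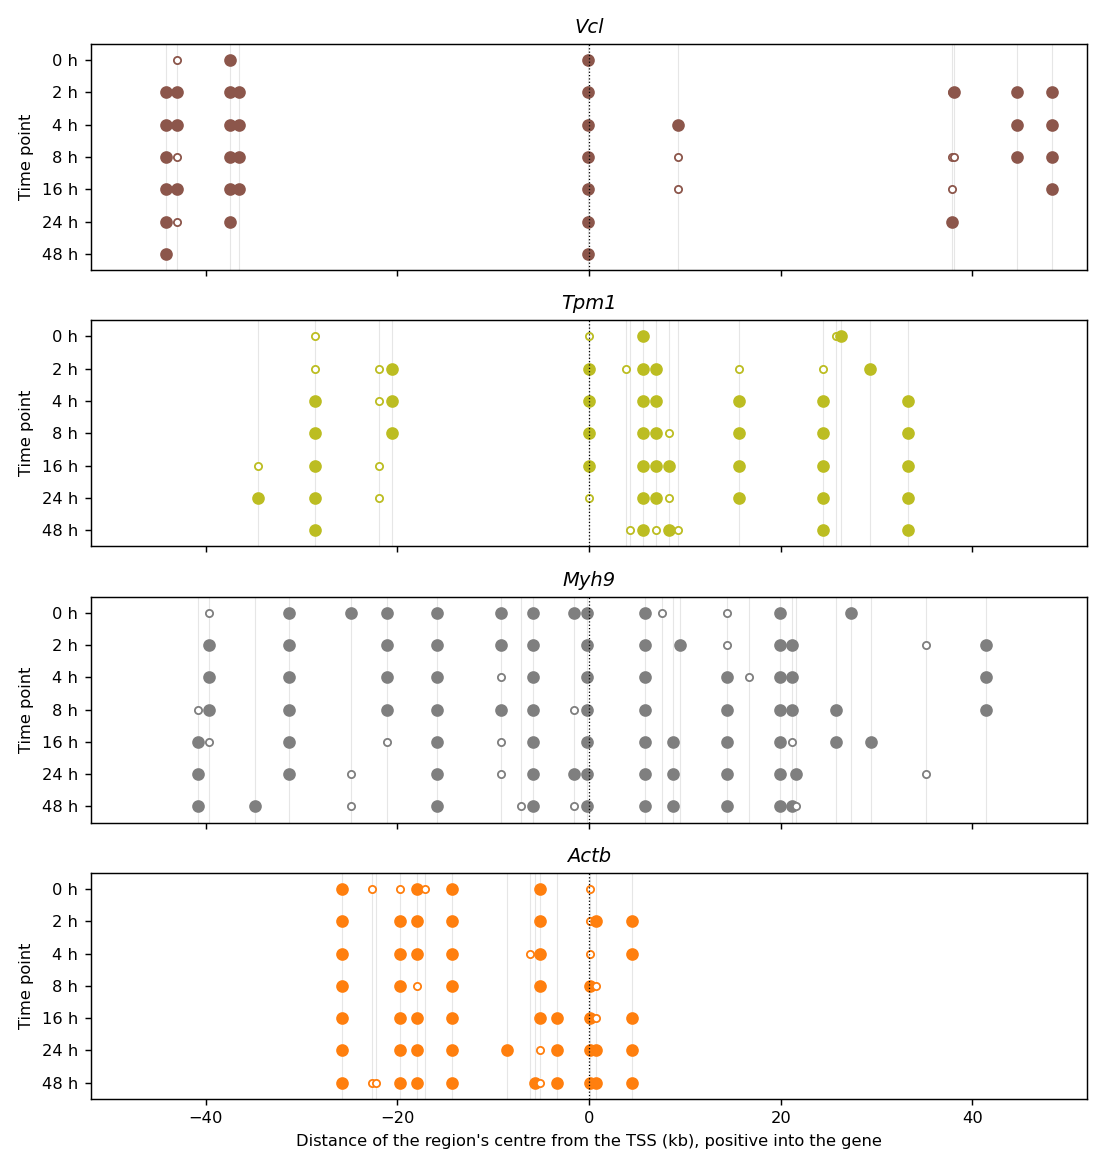
Calls around 4 of the genes by distance from the TSS in kb (x axis, positive into the gene) and time point (y axis). Large filled dots are regions called in both libraries, small open dots regions called in 1. Of the distal Vcl regions, 5 were gained at 2 h, and at 48 h only the one 44.1 kb upstream is called. Downstream of the Tpm1 TSS fewer regions have large dots at 48 h than at 16 h. Myh9 regions exchange, and most Actb regions lie upstream of the TSS.

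Flna was the one member gene that fell in the gene trend. It encodes filamin A, which crosslinks actin filaments into networks. Of its 8 regions, 5 and 5 were called at 0 h, 5 and 4 at 2 h, 5 and 5 at 4 h, 4 and 3 at 8 h, 4 and 4 at 16 h, 3 and 2 at 24 h, and 3 and 3 at 48 h. From 8 h on every library was below both 0 h libraries, a pattern whose share among all genes was not counted. The gene trend fell by 2 regions between the means of 0 h and 48 h (permutation test, adjusted p = 0.00962), and the call was lost with the 50000 highest peaks (adjusted permutation p = 0.763). The region that fell by its own test lay 29.9 kb downstream of the TSS (chrX:74219496-74220426). Its peaks were near the bottom of the 0 h lists, at percentiles of 2.27 and 4.06. They stood at 23.9 in 2 h replicate 1 and at 35 and 11.3 at 4 h. The region was called in both 0 h libraries, in 1 library at 2 h and both at 4 h, and in none from 8 h on (exact permutation test, adjusted p = 0.0338). This call was lost with the 50000 highest peaks (adjusted permutation p = 0.492), with at least 50% of a region covered (0.134) and without the 0 h libraries (0.104). The region over the 5′ end of the gene (chrX:74249577-74249839) was called at 48 h alone, in both libraries, while a region 3.3 kb further in, where 3 annotated transcripts start, was called in all 14 libraries.

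Myh9, which encodes the heavy chain of non-muscle myosin IIA, exchanged regions at a nearly constant number. Of its 26 regions, 13 and 12 were called at 0 h, 12 and 14 at 2 h, 11 and 13 at 4 h, 15 and 13 at 8 h, 12 and 14 at 16 h, 14 and 11 at 24 h, and 11 and 13 at 48 h. All time points overlapped 0 h, and the trend did not pass (permutation test, adjusted p = 0.905). Within this number, 4 of the 26 regions had been gained and 4 lost at 48 h against 0 h. Of all regions, 14.5% were gained and 16.6% lost at 48 h, and the exchange near Myh9 was not tested against these shares. The region over the TSS (chr15:77841993-77842823) was called in all 14 libraries.

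Distal Myh9 regions moved in both directions. A region 40.8 kb upstream (chr15:77882560-77883396) was called in 1 library at 8 h and in all 6 from 16 h on, and an intronic region 8.8 kb downstream (chr15:77833122-77833660) in the same 6 alone (exact permutation test, adjusted p = 0.013 for each, and 0.0591 for each with at least 50% of a region covered). A region 21.1 kb upstream (chr15:77862904-77863682) was called in all 8 libraries up to 8 h, in 1 at 16 h and in none later (exact permutation test, adjusted p = 0.013). An intronic region 27.3 kb downstream (chr15:77814596-77815071) was called at 0 h alone. Inside the gene 41.5 kb downstream, a region with both a CArG box and an AP-1 motif was called in all 6 libraries from 2 to 8 h and in no other.

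Tropomyosins are coiled-coil proteins that lie along the actin filament and govern access of myosin and other binding proteins. Tpm1 had 3 and 4 called regions at 0 h, 7 and 8 at 2 h, 8 and 9 at 4 h, 9 and 8 at 8 h, 8 and 10 at 16 h, 8 and 9 at 24 h, and 7 and 6 at 48 h. All 12 serum libraries were above both 0 h libraries. The trend over all 7 time points did not pass (permutation test, adjusted p = 0.269), nor did the added test between time points (exact permutation test, adjusted p = 0.0898). Of the 17 regions, 5 had been gained at 16 h and 3 at 48 h.

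Within and past Tpm1, 3 regions rose. The region 33.3 kb downstream of the TSS and past the end of the gene (chr9:67015777-67016388) was called in all 10 libraries from 4 h on and in none before (exact permutation test, adjusted p = 0.013). Its adjusted permutation p was 0.227 with at least 50% of a region covered and 0.0622 without the 0 h libraries. Intronic regions at 8.3 kb (chr9:67040939-67041225), which holds the Tpm1 CArG box shown above, and at 24.4 kb (chr9:67024689-67025360) also rose (exact permutation test, adjusted p = 0.0451 for each). With replicate number as a block in the permutation, both calls were lost (adjusted permutation p = 0.0555 for each). The call at 24.4 kb was lost without either 0 h library (adjusted permutation p = 0.0928 and 0.0925) or either 8 h library (0.0556 and 0.0555), and that at 8.3 kb without replicate 2 of 8 h (0.055), with the 50000 highest peaks (0.194) and without the 0 h libraries (0.0622). The region over the TSS (chr9:67048895-67049820) was called in 1 library at 0 h, in all from 2 to 16 h, in 1 at 24 h and in none at 48 h. The region over the internal start 5.6 kb into the gene, where 6 annotated transcripts begin, was called in all 14. A region in the 3′ part of the gene (chr9:67023004-67023268) was called at 0 h alone.

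Tpm4 had 2 and 3 called regions at 0 h, 3 and 3 at 2 h, 2 and 2 at 4 h, 4 and 3 at 8 h, 4 and 3 at 16 h, 4 and 4 at 24 h, and 4 and 4 at 48 h. The gene trend rose by 1.5 regions between the means of 0 h and 48 h (permutation test, adjusted p = 0.0295). With 4 regions in all the call was fragile. It was lost without replicate 1 of 0 h (adjusted permutation p = 0.0546), replicate 1 of 48 h (0.0554) or replicate 2 of 48 h (0.0565), with the 50000 highest peaks (0.214), with at least 50% of a region covered (0.454) and without the 0 h libraries (0.0634). The region at the TSS (chr8:72135021-72136085) was called in 1 library at 0 h, in none at 2 and 4 h and in both from 8 h on (exact permutation test, adjusted p = 0.0541).

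The second region called in every serum library alone lay in an intron of Tpm4, 12.7 kb downstream of the TSS (chr8:72147198-72148140). It was called in none of the 0 h libraries and in all 12 serum libraries, at percentiles between 77.0 and 98.8, while the Vcl region of this class stood between 19.3 and 56.7. Its central 300 bases (chr8:72147520-72147819, plus strand) are printed for their motif content, with 5 GATA motifs and 1 CArG box in capitals, the GATA motifs reading AGATAG, elsewhere TGATAG, or being the reverse complement of a motif on the other strand.
Tpm4 region: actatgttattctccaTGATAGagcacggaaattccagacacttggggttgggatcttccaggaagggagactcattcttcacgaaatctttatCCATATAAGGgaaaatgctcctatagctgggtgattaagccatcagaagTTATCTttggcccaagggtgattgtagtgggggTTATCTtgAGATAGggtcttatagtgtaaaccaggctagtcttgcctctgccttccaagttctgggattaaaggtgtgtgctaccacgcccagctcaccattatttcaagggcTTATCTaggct

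Motifs in the central 200 bp of the regions were compared by the time of their change. The AP-1 motif TGACTCA was present in 17 of the 102 member regions (16.7%), beside 9.21% of all regions. Among the regions gained at 2 h it was present in 8 of 16 members (50%) and in 40.3% of all 10765. Among those gained at 48 h it was present in 1 of 16 members (6.25%) and in 4.99% of all 18070. In both sets the share was lower among the late gains than among the early ones.

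GATA motifs (AGATAA, its variant AGATAG, and likewise TGATAA together with TGATAG, on either strand) were present in 32 member regions (31.4%) and 35.5% of all regions, in 7 of the 16 members gained at 2 h (43.8%, beside 46.8% of all) and in 8 of the 16 gained at 48 h (50%, beside 57.9%). The TEAD motif GGAATG was found in 14 member regions (13.7%) and 14.7% of all. CArG boxes were present in 2 of the 16 members gained at 2 h and in 2 of the 16 gained at 48 h, with 1.04% and 0.830% of all regions gained at those times. The 19 regions called in all 14 libraries had a CArG box in 2 cases. A match describes the letters of the window and not the binding of a factor.

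**Figure D5:**
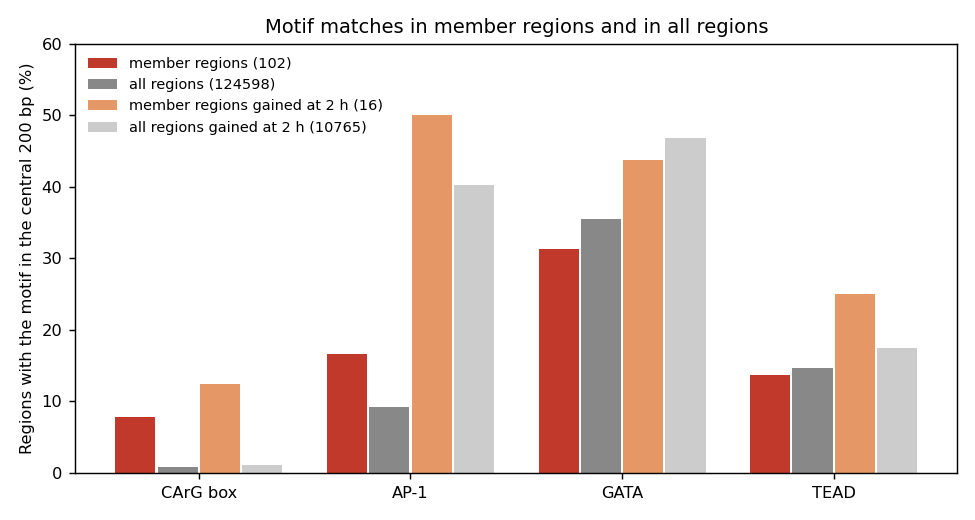
Share of regions with each motif in the central 200 bp, in percent, for the 102 member regions, all 124598 regions, the 16 member regions gained at 2 h and all 10765 regions gained at 2 h. AP-1 stands at 50% of members and 40.3% of all regions gained at 2 h, and the CArG box at 7.84% of members and 0.856% of all regions.

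Further genes of the pathway were read from lists. Of 6 SRF cofactor genes (Mrtfa, Mrtfb, Myocd, Elk1, Elk3 and Elk4), 5 could be tested, of which 1 rose in the number of called regions. Of 27 other cytoskeletal SRF targets, 21 could be tested, and 7 rose and 4 fell. Among all 11553 genes tested, 12% rose and 10.6% fell, and the lists were not tested against these shares. The median difference between 48 h and 0 h was 0 regions for the cofactors, 1 for the other targets and 1.5 for the 10 member genes, beside 0 for all genes with a region.

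Among the other cytoskeletal SRF targets that passed, the genes named here moved in both directions. Tpm2, a further tropomyosin gene, rose from 1.5 ± 0.707 to 4 ± 0 called regions between 0 h and 48 h (SD, n = 2; permutation test, adjusted p = 0.0041). Fhl1, which encodes a LIM-domain protein, rose from 1 ± 0 to 5 ± 1.41 (permutation test, adjusted p = 0.00527). Actc1, which encodes cardiac α-actin, fell from 2.5 ± 0.707 to 0 ± 0 (permutation test, adjusted p = 0.00181). Actn4, which encodes the crosslinker α-actinin 4, fell from 9.5 ± 0.707 to 4 ± 0 (permutation test, adjusted p = 0.00376).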

How the data were processed

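ATAC-seq was performed on 50000 cells per library, with 2 libraries at each of 7 time points. The authors ran the ENCODE ATAC-seq pipeline (1.9.0) and deposited the peaks of each library separately, kept at an irreproducible discovery rate of 0.05 on pseudoreplicates of that library, with blacklisted regions removed and replicates not pooled. Each deposited peak carries 1 unnamed score of unstated scale, which was used only to rank peaks within a list. The submitters' processing notes name mm10, GRCm38 and deepTools. The lists give no counts, so depth is unknown and no interval that needs it is given. The p-values come from rearranging the 14 libraries, with 2 per time point, and speak only for these libraries.

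Peaks of all libraries (839049) were merged at an overlap of 1 bp or more, and regions were given to the nearest GENCODE M21 protein-coding TSS within 50 kb of their centre. The region trend used regions called in 2 to 12 libraries. The gene trend used genes with at least 3 regions whose number varied (100000 shuffles, smallest p 1e-05). The added test between time points enumerated 135135 pairings (smallest p 7.4e-06). All were adjusted by the Benjamini-Hochberg method at 0.05 over all regions or genes and tested on simulated data. The test between time points has little power for a gene at the same level at several times. Deviations of same-numbered libraries were nearly uncorrelated between time points (-0.0152 to 0.0124), so the main tests used no replicate block. Replicate 2 nevertheless had more peaks than replicate 1 at every time point, from 60483 against 56924 at 0 h to 61403 against 61393 at 8 h. Motifs were sought on both strands, and promoters were those of RefSeq for GRCm38. Python 3.11.15, numpy 2.4.6, pandas 2.3.3 and scipy 1.17.1 were used.

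The members and gene lists were chosen with earlier results of these data known. Regions named with coordinates are those nearest to the TSS within 1 kb, those called in all serum libraries or at 0 h alone, and up to 3 per gene that passed the trend test, by p. Pathway genes are named where they passed, up to 6 by p. Some of these, with a further list, are not reported here. Other regions were named after their values were seen.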

Additional observations from a re-analysis of the deposited data

Results flagged for a closer look

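For 2 genes, the pair of libraries exceeded the 0 h mean at several time points and fell short of it at another, which marked them for a closer look. The libraries that fell short, those of Vcl at 48 h and of Tpm4 at 4 h, were level with the lower 0 h library and not below both. For neither gene was the difference between time points in this respect tested, beyond the tests given above. The number of called Vcl regions, as the mean of a time point minus that of 0 h, was 6 at 2 h, 5.5 at both 4 and 8 h, then 4.5 at 16 h, 2 at 24 h and finally -0.5 at 48 h. For Tpm4 the same difference was 0.5 at 2 h, -0.5 at 4 h, 1 in the 8 and 16 h libraries, and 1.5 in those of 24 and 48 h. The Tpm4 differences are each of 1.5 regions or fewer, from 4 regions in all.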

How the results depend on the processing

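Of 300 values recomputed under other settings, 217 kept their direction and their side of the threshold or moved little, and of 412 recomputed without 1 library 377 did. With regions limited to 25 kb from the TSS, the gained were 9, 9, 8 and 9 from 2 to 16 h, the lost were 3, 1, 2, 2 and 4 from 4 to 48 h, 1 was called in all serum libraries alone, 0 at 0 h alone, and 1 fell over time. The shares of all regions gained, lost and falling stayed those given above for 50 kb. The total of member regions within 25 kb was not tallied, so the 25 kb counts have no share of members to set beside them. The mean numbers called were then 31, 37, 36.5, 37.5, 40.5, 41 and 42 from 0 h to 48 h, fewer regions being counted. With all transcript TSSs the means were 57.5 at 2 h, 61.5 at 16 h, and 59 in the 24 h as in the 48 h libraries. Limiting each library to its 50000 highest peaks, 14 regions rose and 7 fell (beside 23.8% and 23% of all regions tested), 2 genes rose and 0 fell (14.6% and 12% of all genes), and the means were 35.5, 46, 47, 46, 45, 47 and 44.5 from 0 h to 48 h. With at least 50% of a region covered, 8 regions were lost at 4 h (beside 8.13% of all regions) and 8 at 24 h (14.1%). Under this setting 4 regions fell over time (11.4% of all tested) and 2 genes rose (9.42% of all genes). The means were then 38.5, 52, 46.5, 47.5, 51.5, 46 and 45. Merging peaks up to 100 bp apart gave means of 52.5 at 2 h and 48.5 at 48 h. Without the 0 h libraries 5 regions rose and 7 fell (beside 7.69% and 12.2% of all regions tested). In that case 2 genes rose and 2 fell (9.27% and 11.1% of all genes), and the trend of Tpm1 turned downward (adjusted permutation p = 0.721). The trend of Myh9, which did not pass, turned upward at 25 kb (0.995), with all transcript TSSs (0.173), as a share of the regions called (0.863) and without replicate 2 of 24 h (0.992) or replicate 1 of 48 h (0.878), within a range of 0.718 to 1 over the left-out libraries. Regions called from 2 to 24 h alone numbered 6 at 25 kb, beside 13.9% of all regions. Under the other settings they numbered 14 to 19, beside 13.9% to 15.1%. The lead of the 102 members over all regions at 50 kb (15.7% beside 13.9%) was not shown at 25 kb, where no share of members was computed. CArG shares over the whole region were 19.6% of members and 2.30% of all. The cause of these changes was not tested.

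Without 1 library, regions lost ranged from 6 to 10 at 2 h, from 5 to 9 at 4 h, from 5 to 8 at 8 h, from 6 to 10 at both 16 and 24 h and from 10 to 15 at 48 h, the highest without replicate 2 of 0 h (at 8 h also without replicate 1 of 8 h). Regions at 0 h alone ranged from 2 to 4, regions falling from 2 to 8 and genes falling from 1 to 2. The shares over all regions moved as well. Without replicate 1 or 2 of 0 h, 21.7% and 20.5% of all regions were lost at 48 h, beside 16.6% with all libraries. Likewise 15.1% and 14.9% of all regions tested fell, beside 12.3%. For regions at 0 h alone no share of all regions was computed without a library.

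Deviations of same-numbered libraries correlated between -0.0152 and 0.0124 over 21 pairs of time points. With a replicate block 6 regions rose and 2 fell (beside 9.49% and 9.13% of all regions tested). Likewise 4 genes rose and 1 fell (10.7% and 9.55% of all genes). The block ended the call of the Tpm1 regions at 8.3 and 24.4 kb (adjusted permutation p = 0.0555 each). The lists hold no counts, so depth limits every absent call to an unknown degree.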
